A study of Mus musculus with 12 samples.

Results

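The region examined is a stretch of mouse chromosome 6 that holds the genes Frmd4b, Mitf and Foxp1, chr6:96925341-101520993 in mm10, which the study displayed as an example region. Of the 2725511 bins of 1 kb in each deposited track, 4594 lie fully inside it, and all were used, together with the 3 named genes among the 19 protein-coding genes of the annotation that overlap it. The tracks come from OK-seq, which sequences Okazaki fragments, the short pieces made on the lagging strand, after a pulse of 2 min with the thymidine analog EdU. Because the strand of a fragment tells which way its fork moved, the Crick percentage, that is the reads on the Crick strand as a share of all reads, is in the methods the percentage of forks that move from left to right. It climbs from left to right across a zone where replication initiates and declines across a zone where forks meet.

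Mouse embryonic stem cells (ESCs) were measured in the naive state, kept with LIF and 2i, and as epiblast-like cells (EpiLCs) after about 63 h without them, with 3 genotypes in each state. The control was not wild type but a line without KMT2C (control KO in the labels) in which KMT2D was intact. In KMT2C/D dKO (dKO), KMT2D was deleted along with KMT2C, by an inducible Cre (CreER) switched on with 4-hydroxytamoxifen, in cells of mixed C57BL/6 and 129 background. In KMT2C/D dCD (dCD), labelled double catalytic dead, both proteins lacked catalytic activity, and the cells came from a male line (R1) of 129 background with a conditional KMT2D allele, so a difference between dCD and control cannot be told apart from a difference between parental lines. The 2 replicates of each condition were summed by the authors, which leaves 1 library per group. Every difference given here therefore compares libraries, with 95% intervals that cover counting error only and with no test between conditions.

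KMT2C and KMT2D are methyltransferases that place the mono-methyl mark on lysine 4 of histone H3, mainly at enhancers. Mitf encodes a basic helix-loop-helix leucine zipper transcription factor, known as the main regulator of the melanocyte lineage and active in the retinal pigment epithelium. Foxp1 encodes a forkhead transcription factor with roles in heart, lung and lymphocyte development, and a splice form of it in ESCs has been linked to pluripotency genes. Frmd4b encodes a scaffold protein with a FERM domain. Long genes in general are replicated by forks from a few zones, so the fork direction along them can be read as stretches of one slope.

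Depth differed between states. The tracks held 4409068, 3937871 and 3655095 reads in the naive control, dKO and dCD libraries and 11407678, 12962445 and 13601460 in the EpiLC libraries. Within the region the counts were 9471, 8468 and 9264 (naive) and 24132, 28483 and 31276 (EpiLC), or 184 to 206 and 525 to 681 reads per 100 kb, so intervals are wider in the naive libraries. The region as a whole was near balance between the strands, with a Crick percentage of 48.5% to 49.5% in the 6 libraries. The share of all reads that fell in the region was 1.18 times the control's in naive dCD and 1.09 times in EpiLC dCD, against at most 1.04 times in dKO. Chromosome 6 as a whole was raised in dCD as well, 1.11 and 1.06 times, and the part of this in the results was not tested.

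The annotated starts of the genes differ in CpG content, and sequences are shown for the upstream starts of Mitf and Foxp1 and for the most CpG-rich start. The highest strand bias inside the Foxp1 body lay 21.7 to 41.7 kb upstream of that start in the EpiLC libraries and 1.70 kb from it in naive dKO. A link between the start and the strand bias was not tested. In each sequence CpG pairs are in capitals, the strand is that of the gene, and the start lies 250 bases into the 300 shown (RefSeq, GRCm38.p6). The first is the most upstream start of Mitf at chr6:97806808-97807107, plus strand. The others are the most upstream RefSeq start of Foxp1 at chr6:99520944-99521243 and an inner start of Foxp1 at chr6:99028249-99028548, both on the minus strand.
Mitf upstream start: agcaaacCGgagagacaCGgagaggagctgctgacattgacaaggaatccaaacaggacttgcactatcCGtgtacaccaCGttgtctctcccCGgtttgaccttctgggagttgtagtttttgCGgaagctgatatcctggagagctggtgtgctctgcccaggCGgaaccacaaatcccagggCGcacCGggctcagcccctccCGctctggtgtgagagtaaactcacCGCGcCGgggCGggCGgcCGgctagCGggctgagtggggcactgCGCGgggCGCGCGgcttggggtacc
Foxp1 upstream start: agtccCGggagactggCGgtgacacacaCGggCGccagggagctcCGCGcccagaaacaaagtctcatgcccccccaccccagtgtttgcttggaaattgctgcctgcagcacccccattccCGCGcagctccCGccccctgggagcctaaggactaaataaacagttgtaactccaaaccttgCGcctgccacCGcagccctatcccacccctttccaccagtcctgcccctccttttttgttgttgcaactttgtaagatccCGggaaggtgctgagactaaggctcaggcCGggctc
Foxp1 inner start: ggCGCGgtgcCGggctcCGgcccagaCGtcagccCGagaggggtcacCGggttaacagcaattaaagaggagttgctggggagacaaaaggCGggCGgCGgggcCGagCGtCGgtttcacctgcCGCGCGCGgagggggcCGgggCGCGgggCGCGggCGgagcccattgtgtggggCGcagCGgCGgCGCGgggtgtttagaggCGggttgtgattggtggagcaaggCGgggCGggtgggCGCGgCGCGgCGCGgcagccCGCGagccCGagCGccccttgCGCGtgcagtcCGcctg
They hold 22, 13 and 44 CpG pairs. Of 32851 RefSeq promoter windows of this length, 76.9%, 62.1% and 97.8% hold fewer. The remaining starts listed for the 3 genes hold 5 to 21 pairs.

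Across the region the fork direction formed a small number of slopes, some present in all 6 libraries and others not. The Crick percentage was lowest at the left edge, in the window that starts at 97 Mb, with 27.9%, 28.6% and 19.5% in the naive control, dKO and dCD libraries and 30.3%, 31.6% and 30.4% in the EpiLC libraries. Between there and the left part of Frmd4b at 97.3 Mb it was higher by 28.6, 33.2 and 39.3 points (naive) and 24.9, 25.8 and 28.4 points (EpiLC), each with an interval above 0. The windows that bound each slope were chosen after their values were seen. This first climb, just left of the 3′ end of Frmd4b, held the highest strand bias of the region in naive dCD and in all EpiLC libraries. Strand bias is here the Crick percentage of the 100 kb to the right of a position minus that of the 100 kb to its left, and it was 33.1 points at 97.23 Mb in naive dCD and 19.1 to 21.3 points at 97.21 to 97.26 Mb in the EpiLC libraries.

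**Figure D1:**
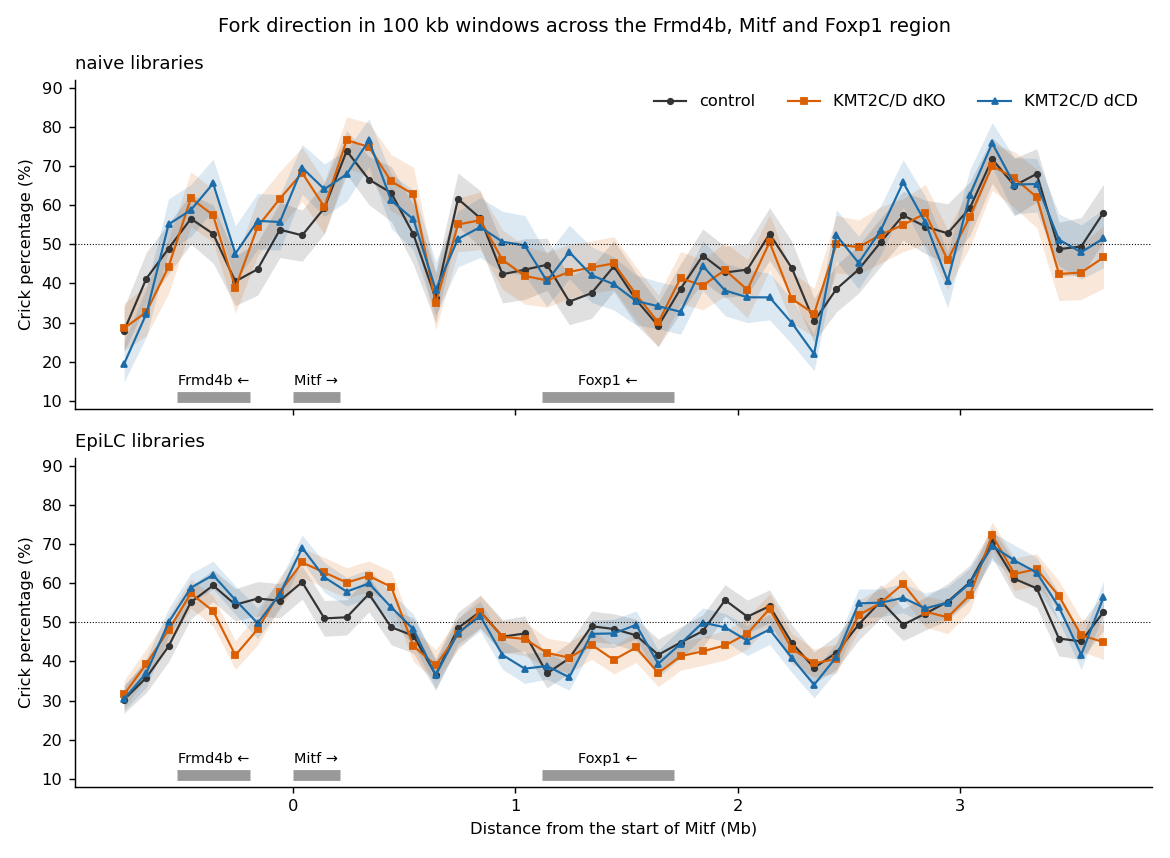
Crick percentage (%) in 100 kb windows, by distance from the start of Mitf in Mb, for the naive (top) and EpiLC (bottom) libraries. Lines are the 3 genotypes, bands are 95% Wilson intervals, grey bars are the gene bodies with arrows for the direction of transcription, and the dotted line is 50%. The naive lines peak at 73.8%, 76.6% and 76.5% at or just right of the 3′ end of Mitf, where the EpiLC lines lie between 51.3% and 61.8%.

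From the dip inside Frmd4b at 97.5 Mb to the 3′ end of Mitf at 98.0 Mb the naive libraries climbed by 33.3, 37.7 and 20.3 points and EpiLC dKO by 18.5 points (13.2 to 23.8). The EpiLC control had -3.22 points (-9.31 to 2.90) and EpiLC dCD 2.14 points (-3.02 to 7.28) over the same stretch, with intervals that include 0.

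To the right of Mitf forks converged, and here the states differed most. In the window from 98.0 Mb, which holds the 3′ end of Mitf, the Crick percentage was 73.8% in the naive control, 76.6% in naive dKO and 67.9% in naive dCD. The EpiLC values were 51.3%, 60.1% and 57.8%. All EpiLC values lay below all naive values there. At 98.4 Mb all 6 libraries were close together, between 34.9% and 39%. The difference between these windows was thus -37.6, -41.7 and -29.5 points in the naive libraries and -14.7, -21.1 and -21.3 points in the EpiLC libraries, each with an interval below 0. Between the windows at 98.4 and 98.5 Mb, left of Foxp1, the Crick percentage rose by 25.3, 20.2 and 12.9 points (naive) and 11.9, 7.90 and 10.8 points (EpiLC). Each interval was above 0. The highest strand bias of the naive control lay there, 29.0 points (19.3 to 38.0) at 98.53 Mb. Further right, past Foxp1, a climb from 100.1 to 100.9 Mb measured 41.4, 37.7 and 53.8 points (naive) and 32.1, 32.7 and 35.5 points (EpiLC). At 100.9 Mb the libraries were thus again alike at 69.5% to 75.8%. The highest strand bias of naive dKO lay on this climb, 25.9 points (15.9 to 35.3) at 100.86 Mb.

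The EpiLC profiles were flatter than the naive profiles, here and genome-wide. The amplitude, taken as the SD among 100 kb windows once counting variance is removed, was 10.5, 11.5 and 12.9 points over the region's 45 windows in the naive libraries and 7.41, 8.68 and 9.23 points in the EpiLC libraries. Over the autosomes and X it was 11.7, 12.5 and 15.7 points (naive) and 9.13, 10.03 and 11.7 points (EpiLC). dCD thus had the largest amplitude of the 3 genotypes in both states and in both sets. Across the 45 windows the EpiLC and naive control profiles correlated with r = 0.70, against 0.85 in dKO and 0.81 in dCD, given as a description, since neighbouring windows share forks. Over all windows of the genome these values were 0.83, 0.88 and 0.88.

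Mitf lies on the plus strand at chr6:97807052-98021349 and is 214 kb long. Forks ran mostly with its transcription: the Crick percentage of its body was 57.2% (52.6 to 61.6) in the naive control, 63.7% (58.8 to 68.3) in naive dKO and 67.4% (62.7 to 71.7) in naive dCD. In the EpiLC libraries it was 54.4% (51.3 to 57.4), 62.6% (59.9 to 65.2) and 64.6% (62.1 to 67.0). The control was the lowest of the 3 genotypes in each state. The counts behind these values were 388 to 467 reads in the naive and 1022 to 1442 in the EpiLC libraries.

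Over the Mitf body both EpiLC mutants lay above the control, and no state difference had an interval that left out 0. Against the EpiLC control, dKO was higher by 8.17 points (4.15 to 12.2) and dCD by 10.2 points (6.23 to 14.1). Over 10 alternatives the dKO value ranged from 5.95 to 12.9 points, the latter with the libraries thinned to the smallest. In the naive libraries the differences were 6.49 points (-0.105 to 13.0), whose interval includes 0, and 10.2 points (3.80 to 16.5). From odd-numbered bins alone the latter was 6.02 points (-2.70 to 14.6). The mutants share the control library of their state, so these are not independent of each other. EpiLC minus naive was -2.77 points (-8.14 to 2.68) in the control, -1.08 points (-6.42 to 4.45) in dKO and -2.83 points (-7.84 to 2.42) in dCD. The mutants' state differences departed from the control's by 1.69 points (-5.94 to 9.40) and -0.0579 points (-7.46 to 7.45).

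The small body average of Mitf hid a state difference within the gene. Right of the gene's midpoint, towards its 3′ end, the Crick percentage was 63.1%, 61.7% and 67.3% in the naive control, dKO and dCD libraries and 50.3%, 61.6% and 59.2% in the EpiLC libraries. There EpiLC minus naive was -12.8 points (-20.1 to -5.21) in the control, -0.172 points (-7.55 to 7.51) in dKO and -8.06 points (-15 to -0.604) in dCD. The difference of dKO from the control in this respect was 12.6 points (2.04 to 23.2), while that of dCD was 4.75 points (-5.57 to 15.2). Left of the midpoint, at the 5′ end, the control's state difference had the other sign, 6.19 points (-1.64 to 14), with an interval that includes 0. In the 100 kb beyond the 3′ end the EpiLC value was lower in every genotype, though for dCD the direction turned, to 0.982 points, when only even-numbered bins were used. The naive libraries had 73.8%, 74.7% and 68.4% there and the EpiLC libraries 55.7%, 61.8% and 59.7%, and EpiLC minus naive was -18.0 points (-24.9 to -10.6) in the control, -12.9 points (-20.1 to -4.81) in dKO and -8.71 points (-15.8 to -1.02) in dCD.

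In the naive libraries the genotypes parted at the 5′ end of Mitf. In the window from 97.8 Mb, which holds the upstream start printed above, the naive control had 52.3% and the naive mutants 68.2% and 69.5%, a difference of 16.0 points (6.16 to 25.2) for dKO and 17.2 points (7.89 to 26.1) for dCD. These were the highest differences of each naive mutant among the 45 windows, and both are taken against the same naive control library. Differences of at least 10 points in either direction were found in 13.0% (dKO) and 23.2% (dCD) of windows genome-wide. In EpiLCs the values were 60.2%, 65.3% and 69.0%, with differences from the control of 5.03 points (-0.529 to 10.6) for dKO and 8.77 points (3.36 to 14.2) for dCD. Over the whole stretch left of the midpoint the naive libraries had 52.3%, 65.7% and 67.5%, with differences from the control of 13.4 points (3.65 to 22.8) and 15.2 points (5.73 to 24.3), and the EpiLC libraries 58.5%, 63.7% and 69.6%. The EpiLC differences over that stretch were 5.18 points (-0.397 to 10.8) for dKO and 11.1 points (5.71 to 16.4) for dCD. In the next window, from 97.9 Mb, the naive values were 59.3%, 59.5% and 64.1%. There both mutants parted from the control in EpiLCs, at 51%, 62.7% and 61.5% in control, dKO and dCD.

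**Figure D2:**
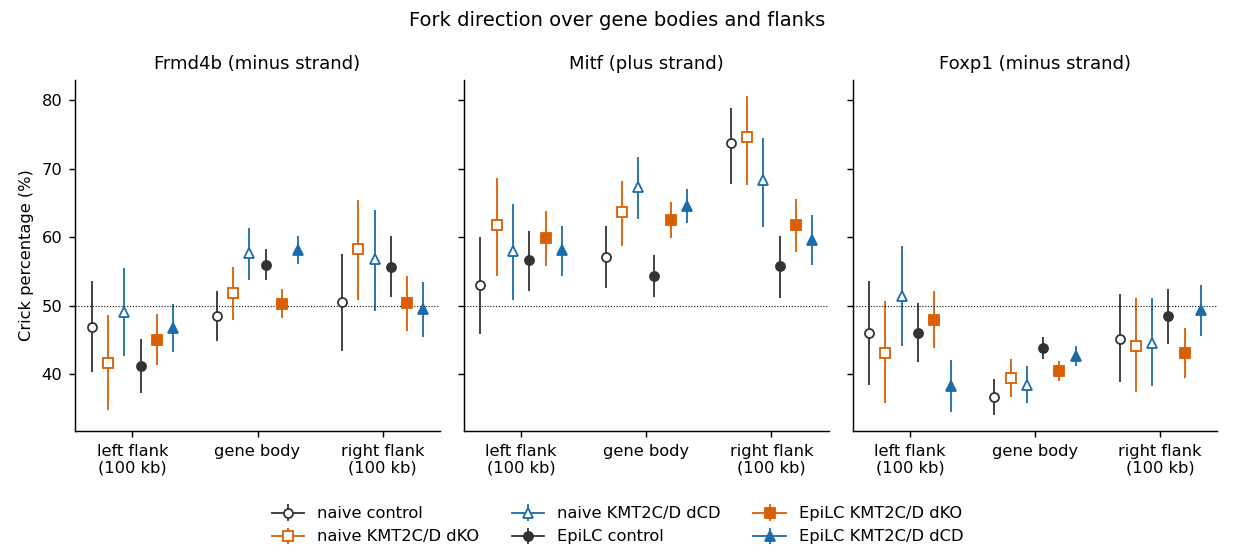
Crick percentage (%) over the body and the 100 kb left and right flanks of Frmd4b, Mitf and Foxp1. Open symbols are naive and filled symbols EpiLC libraries, shapes and colours are genotypes, bars are 95% Wilson intervals and the dotted line is 50%. The Mitf body is lowest in the control in both states, and the Foxp1 body lies below 50% in all 6 libraries.

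Foxp1, on the minus strand at chr6:98925338-99522721, is the longest of the genes at 597 kb, and forks moved leftward, with its transcription, in the majority. The Crick percentage of the body was 36.6% (34.0 to 39.2) in the naive control, 39.4% (36.7 to 42.2) in naive dKO and 38.4% (35.8 to 41.2) in naive dCD. In EpiLCs it was 43.9% (42.3 to 45.5), 40.4% (38.9 to 42.0) and 42.7% (41.2 to 44.1). The naive control was the lowest and the EpiLC control the highest of the 6 libraries.

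EpiLC minus naive over the Foxp1 body was 7.29 points (4.21 to 10.3) in the control, 1.02 points (-2.16 to 4.16) in dKO and 4.22 points (1.14 to 7.25) in dCD. The state difference of dKO minus that of the control was -6.27 points (-10.7 to -1.87). For dCD the corresponding difference was -3.07 points (-7.38 to 1.25), whose interval includes 0. Within EpiLCs, dKO minus control was -3.44 points (-5.65 to -1.22) and dCD minus control -1.21 points (-3.36 to 0.939). Some of these values depended on the processing. The state difference of dCD kept an interval without 0 under 6 of 10 alternatives and was lowest, at 1.25 points (-1.24 to 3.69), when divided by the amplitude of each library. With every library thinned to the smallest, the departure of dKO was -3.24 points (-8.94 to 2.48) and EpiLC dKO minus control -1.34 points (-5.37 to 2.71). In naive cells the values were 2.83 points (-0.969 to 6.62) and 1.86 points (-1.88 to 5.60).

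The state difference of the control and dCD was larger in the 5′ part of Foxp1, right of the midpoint, than over the whole body. There the naive libraries had 35.3%, 37.2% and 33.8% and the EpiLC libraries 45.4%, 40.0% and 44.7%, in the order control, dKO and dCD. EpiLC minus naive was 10.2 points (5.83 to 14.4), 2.87 points (-1.65 to 7.26) and 10.8 points (6.6 to 14.9). dKO departed from the control by -7.28 points (-13.5 to -1.12) and dCD by 0.665 points (-5.29 to 6.6). In the 3′ part the genotypes ordered differently, with EpiLC minus naive of 4.75 points (0.328 to 9.05), -0.696 points (-5.21 to 3.74) and -2.98 points (-7.49 to 1.47). There dCD departed from the control by -7.73 points (-14.0 to -1.46) and dKO by -5.44 points (-11.7 to 0.819), whose interval includes 0.

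In the 3′ part the strand bias near the inner, CpG-rich start depended on the width over which it was taken. Centred on that start, over 100 kb on each side, it was -2.17 points (-11.1 to 6.81) in the naive control, 16.9 points (7.28 to 26.1) in naive dKO and 10.1 points (0.293 to 19.6) in naive dCD. In EpiLCs it was 12.2 points (6.69 to 17.5), 5.98 points (0.555 to 11.4) and 8.82 points (3.98 to 13.6). Naive dKO was thus the highest of the 6 libraries, and its maximum inside the Foxp1 body lay 1.70 kb from the start, at 99.03 Mb, with 16.4 points (6.80 to 25.6). Among the 10 kb steps inside the Foxp1 body, the highest strand bias of each EpiLC library lay at 99.05, 99.07 and 99.06 Mb (control, dKO and dCD), 21.7, 41.7 and 31.7 kb upstream of that start. At 99.05 Mb it was 17.3 points (11.8 to 22.6) in the EpiLC control, 7.43 points (2.05 to 12.8) in EpiLC dKO and 13.0 points (8.18 to 17.8) in EpiLC dCD. The naive control had -3.21 points (-12.1 to 5.78) at the same position, and the naive mutants 8.31 points (-1.23 to 17.7) and 7.21 points (-2.64 to 16.9). Centred on the start itself, the EpiLC minus naive difference was 14.3 points (3.81 to 24.7) in the control, -10.9 points (-21.6 to 0.105) in dKO and -1.25 points (-11.9 to 9.64) in dCD. Over 25 kb on each side the control's value was -2.14 points (-22.6 to 18.5), and that of dKO -24.5 points (-44.8 to -2.67), so the control's difference depended on the width. At 25 kb the naive control itself had 5.13 points (-12.3 to 22.4) and EpiLC dKO -2.19 points (-12.9 to 8.6). The position was singled out after its values were seen.

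**Figure D3:**
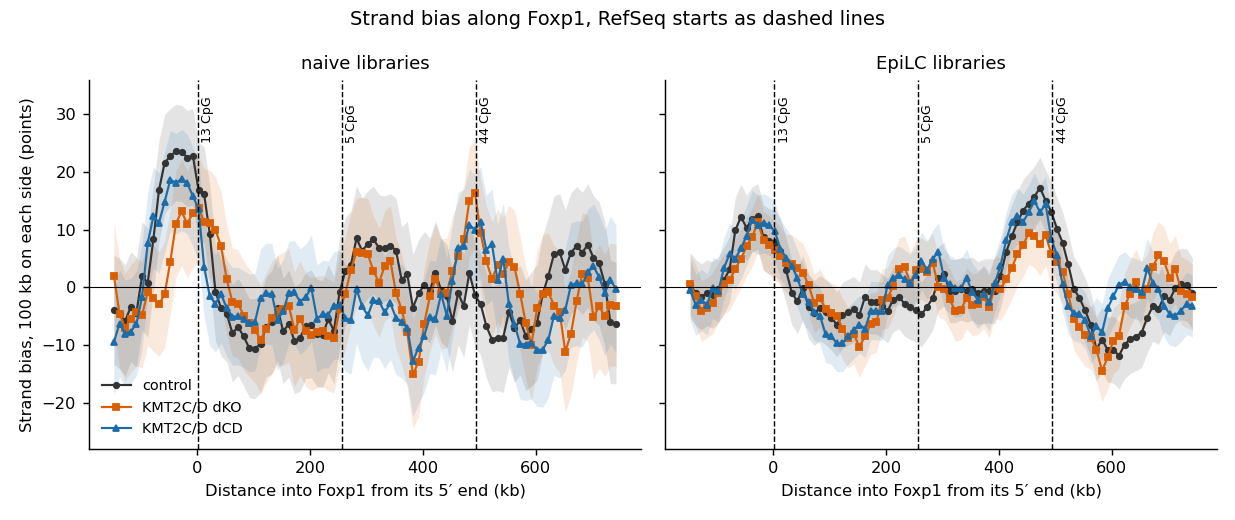
Strand bias (Crick percentage of the 100 kb to the right minus the 100 kb to the left, in points) along Foxp1, by distance from its 5′ end in kb, for naive and EpiLC libraries. Lines are genotypes, bands 95% intervals and dashed lines RefSeq starts with their number of CpG pairs. In EpiLCs the control reaches 17.3 points at 21.7 kb upstream of the start with 44 CpG pairs, where the naive control is at -3.21 points.

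At the other end of Foxp1, the same measure centred on the upstream RefSeq start had an interval above 0 in each of the 6 libraries. It was 17.8 points (9.29 to 26.1) in the naive control, 14.1 points (4.55 to 23.2) in naive dKO and 14.3 points (5.61 to 22.8) in naive dCD. In EpiLCs it was 8.25 points (2.54 to 13.9), 6.21 points (1.08 to 11.3) and 10.3 points (5.16 to 15.4). The intervals overlapped between all libraries.

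In the left flank of Foxp1, beyond its 3′ end, EpiLC dCD had the lowest value of the 6 libraries. The Crick percentage was 46.0%, 43.1% and 51.4% in the naive and 46.1%, 48.0% and 38.2% in the EpiLC libraries. dCD minus control in EpiLCs was -7.85 points (-13.6 to -2.08). The right flank lay between 43.1% and 49.3% in the 6 libraries.

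Frmd4b, on the minus strand at chr6:97286867-97617541 and 331 kb long, had the body values closest to 50% in the naive control and in dKO, and rightward forks, against its transcription, in the majority in the other libraries. Its body had 48.5% (44.8 to 52.1) in the naive control, 51.8% (47.9 to 55.6) in naive dKO and 57.6% (53.8 to 61.4) in naive dCD. In EpiLCs it had 56.0% (53.7 to 58.3), 50.3% (48.2 to 52.4) and 58.1% (56.1 to 60.1). dCD was highest in both states. The control was lowest in naive cells, and dKO was lowest in EpiLCs.

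The control alone showed a state difference over the Frmd4b body whose interval left out 0, at 7.56 points (3.23 to 11.9). It was -1.50 points (-5.88 to 2.90) in dKO and 0.504 points (-3.74 to 4.81) in dCD. The difference from the control was -9.05 points (-15.2 to -2.89) for dKO and -7.05 points (-13.1 to -0.947) for dCD. Their intervals left out 0 under 8 of 10 alternatives for dKO and 6 of 10 for dCD, and both were smallest from even-numbered bins alone, at -4.17 points (-12.7 to 4.37) and -2.02 points (-10.5 to 6.52). The mutants differed from the control in different states. In naive cells dCD exceeded the control by 9.19 points (3.89 to 14.4) and dKO by 3.34 points (-1.99 to 8.64), whereas in EpiLCs dKO minus control was -5.71 points (-8.79 to -2.62) and dCD minus control 2.14 points (-0.893 to 5.17). dCD exceeded dKO by 5.85 points (0.430 to 11.2) in naive cells and 7.85 points (4.95 to 10.7) in EpiLCs. The EpiLC dKO difference was -1.56 points (-7.25 to 4.14) with the libraries thinned to the smallest, and 9.78% of the long genes described below had a difference at least as large as the one without thinning. From even-numbered bins alone, the control's state difference was 4.87 points (-1.10 to 10.8) and naive dCD minus control 5.91 points (-1.51 to 13.2).

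The body differences whose intervals left out 0 were larger in the 5′ part of Frmd4b, right of its midpoint. The Crick percentage there was 40.7%, 40.4% and 52.7% in the naive control, dKO and dCD libraries and 54.4%, 42.8% and 55.7% in the EpiLC libraries. The EpiLC control thus resembled both dCD libraries, and EpiLC dKO the naive control and naive dKO. dKO minus control in EpiLCs was -11.6 points (-15.9 to -7.28) in this part and 0.302 points (-4.04 to 4.65) in the 3′ part. The dip is plain in the window profile. From 97.3 to 97.5 Mb the difference was -16.0, -22.9 and -11.1 points in the naive libraries and -15.8 points in EpiLC dKO, each with an interval below 0. These positions were chosen after the values were seen. The difference was -0.625 points (-6.50 to 5.26) in the EpiLC control and -3.13 points (-8.30 to 2.07) in EpiLC dCD.

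The flanks of Frmd4b, 100 kb beyond each end, gave wider intervals. In the right flank, beyond the 5′ end, the naive libraries had 50.5%, 58.3% and 56.8% and the EpiLC libraries 55.7%, 50.3% and 49.5%, so that EpiLC was above naive in the control and below it in both mutants. The departures from the control were -13.2 points (-24.9 to -1.19) for dKO and -12.5 points (-24.2 to -0.535) for dCD. No single state difference there had an interval that left out 0. In the left flank the values lay between 41.1% and 49.1%.

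**Figure D4:**
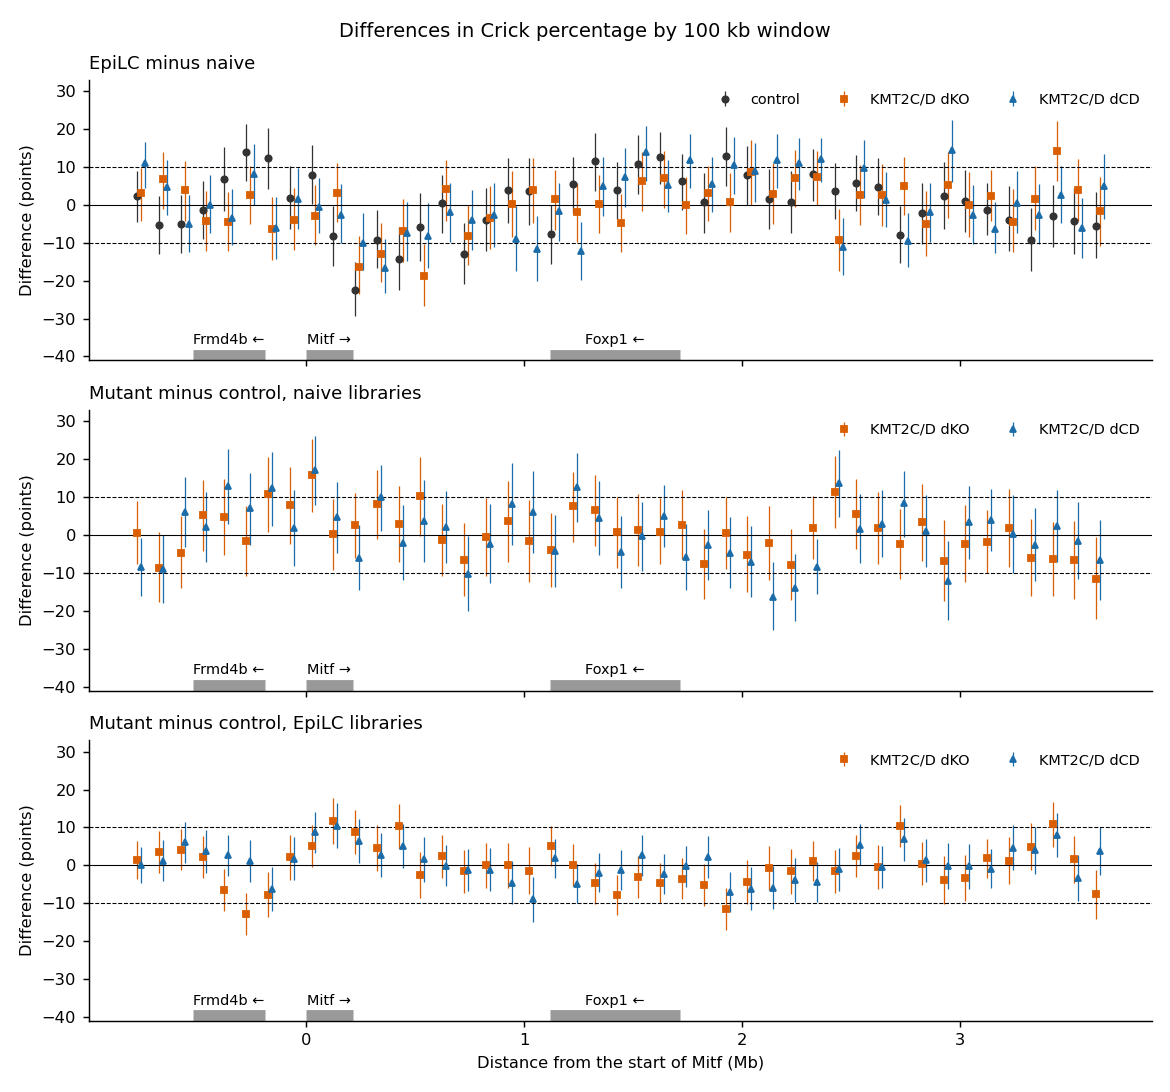
Differences in Crick percentage (points) by 100 kb window and distance from the start of Mitf in Mb. The top panel is EpiLC minus naive for each genotype, the lower panels are mutant minus control within naive and within EpiLC libraries, bars are 95% intervals and dashed lines mark 10 points in either direction. In the EpiLC panel dKO lies below -10 points over the 5′ part of Frmd4b and above 10 points over Mitf.

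Counted over the 45 windows, EpiLC and naive differed by at least 10 points in 9 windows in the control, 4 in dKO and 13 in dCD. Among all windows of the autosomes and X with at least 50 reads in both libraries, 14.7%, 10.9% and 21.5% passed the same size in either direction, against 20%, 8.89% and 28.9% here. The order of the genotypes depended on the processing. Divided by the amplitude of each library the counts were 10, 4 and 5 windows, or 22.2%, 8.89% and 11.1% against 15.3%, 8.88% and 8.60% of the genome. Thinned to the smallest library the control had 16 windows and dCD 8, and after correction for T minus A content the control had 5. No share over the genome is given for thinning or this correction, so these counts cannot be set against a background. For naive mutant minus control, 5 windows (dKO) and 9 windows (dCD) passed, or 11.1% and 20% against a background of 13.0% and 23.2%. For EpiLC mutant minus control, 6 windows passed in dKO, 13.3% against a background of 2.44%, and 1 window in dCD, 2.22% against 4.71%. The excess in dKO depended on the window size, with 12.1% against 7.22% in windows of 50 kb and 0 of 22 windows against 0.773% in windows of 200 kb, and 0 windows reached 20 points. The counts of naive dKO, naive dCD and EpiLC dCD moved with the processing as well. They are listed in the closing section, where some have no genome share beside them. The region was chosen for display by the study and is not a random sample of the genome.

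The 6 windows of EpiLC dKO were spread over the region. The largest difference was over the 5′ part of Frmd4b, from 97.5 Mb, at -12.9 points (-18.4 to -7.35), a size that 0.580% of 25172 windows of the genome reach in either direction. Over Mitf, from 97.9 Mb, it was 11.7 points (5.64 to 17.7), reached by 1.06%, and this window was also the single window of EpiLC dCD, at 10.5 points (4.50 to 16.4). The others began at 98.2 Mb with 10.3 points, 99.7 Mb with -11.6 points, 100.5 Mb with 10.4 points and 101.2 Mb with 10.9 points. In the order of position, dCD minus control in these 6 windows was 1.2, 10.5, 5.13, -6.98, 6.84 and 8 points, against the same control library. The largest state difference of the control, -22.5 points (-29.4 to -15.1) at the 3′ end of Mitf, was reached in size by 49 of 24885 windows.

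Set among the 2475 protein-coding genes of at least 100 kb with at least 50 reads in every library, Mitf lay in the tail in both EpiLC mutants. A body difference as large as its 10.2 points in EpiLC dCD was found in 45 genes (1.82%), Mitf included, and one as large as its 8.17 points in EpiLC dKO in 68 genes (2.75%). In naive cells 344 genes (13.9%) and 472 genes (19.1%) matched its differences. The state differences of the control over Frmd4b and Foxp1 were matched by 528 genes (21.3%) and 567 genes (22.9%), so they were common in size. The median of these differences over all long genes was -0.0599 points, and the median size was 4.13 points. Over Frmd4b, dKO minus control in EpiLCs was matched by 242 genes (9.78%).

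**Figure D5:**
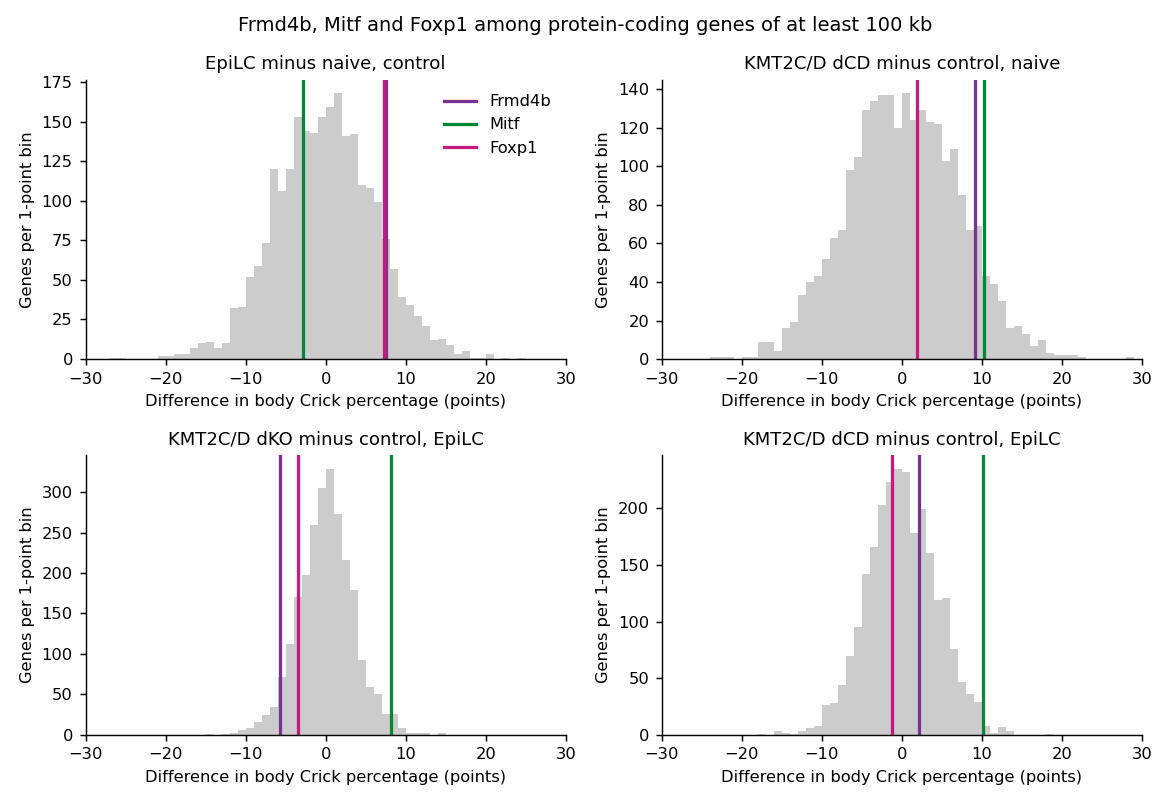
Number of protein-coding genes of at least 100 kb (2475 genes) by their difference in body Crick percentage, in bins of 1 point, for 4 comparisons. Coloured lines are Frmd4b, Mitf and Foxp1. Mitf lies at 8.17 and 10.2 points in the EpiLC mutants, at the right edge of the distributions.

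Genes outside the region whose forks ran most like those of each gene, relative to transcription and over the 6 libraries, were found by the root mean square difference. For Mitf, which had 54.4% to 67.4% of forks with transcription, they were Mrvi1 (2.21 points), Mapk10 (2.29 points) and Dync2h1 (2.31 points). For Foxp1, with 56.1% to 63.4%, they were Cnnm2 (1.09 points), Sgms1 (1.13 points) and Ptprk (1.46 points). For Frmd4b, with 41.9% to 51.5%, they were Tspan7 (1.87 points), Mrtfb (2.05 points) and Lrrtm3 (2.07 points). Mapk10, a kinase of the JNK family, had 59.3%, 61.7% and 69.4% in the naive and 54.4%, 58.5% and 63% in the EpiLC libraries. Each gene from outside the region was named because of its likeness to Mitf, Foxp1 or Frmd4b.

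At the annotated starts themselves, over 25 kb on each side, depth left wide intervals. The strand bias at the Mitf start was -0.318, 0.00 and 20 points in the naive and 7.43, -2.07 and 7.56 points in the EpiLC libraries, and every interval included 0. At the Foxp1 start it was 5.34, 10.5 and 17.7 points (naive) and -2.32, 2.94 and 8.62 points (EpiLC), with an interval above 0 only in naive dCD (2.2 to 33). That is the GENCODE start. At the upstream RefSeq start, whose sequence is printed above, naive dCD had 11.8 points (-2.72 to 26.1) and every interval included 0. At the inner RefSeq start naive dKO had 22.3 points (3.33 to 39.5) and EpiLC dCD 11.5 points (2.41 to 20.3), and the other intervals included 0. At the Frmd4b start it was -0.0659, 14.7 and 4.18 points (naive) and 2.49, 10.8 and 5.48 points (EpiLC), and every interval included 0. At the scale of 25 kb no strand bias was thus detectable at the start of Mitf or Frmd4b at this depth. Over 100 kb on each side, the upstream RefSeq start of Foxp1 had an interval above 0 in every library, as given above. At that of Frmd4b intervals above 0 were found in naive control (11.9 points, 2.38 to 21.1), naive dKO (19.0 points, 8.63 to 28.7), naive dCD (10.7 points, 0.392 to 20.7) and EpiLC dKO (10.3 points, 4.76 to 15.7). At that of Mitf they were found in dCD alone, at 11.5 points in both states (1.70 to 20.9 naive, 6.46 to 16.4 EpiLC). Values at the inner starts of Frmd4b and Mitf differed from these. At the Frmd4b starts at 97487820 and 97459286 every value was below 0, from -20.1 to -7.15 points at the first, where each of the 6 intervals left out 0, and from -21.4 to -3.46 points at the second, where those of naive control, naive dKO and EpiLC dKO did. At the Mitf start at 97991783 naive control had 16.5 points (7.66 to 25), naive dKO 13.9 points (3.84 to 23.4) and EpiLC dCD -6.34 points (-11.6 to -1.05). At that at 97929817 naive control had 13.4 points (3.95 to 22.5), EpiLC control -8.54 points (-14.8 to -2.14) and EpiLC dCD -12.4 points (-17.5 to -7.24). The other intervals at both Mitf starts included 0.

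Among the starts of all 19 genes, 3, 0 and 4 in the naive and 2, 3 and 3 in the EpiLC libraries had an interval above 0. Over all protein-coding starts of the autosomes and X with reads on both sides these shares were 19.3%, 17.3% and 18.6% (naive) and 20.3%, 24.0% and 25.9% (EpiLC). An interval below 0 was found at 1 start each in naive dCD and EpiLC dKO, and at 0 starts in the others, where the shares over all starts were 3.61%, 3.31% and 3.31% (naive) and 3.43%, 4.20% and 4.25% (EpiLC). The highest strand bias lay at Ppp4r2, a regulatory subunit of protein phosphatase 4, in the naive control (34.8 points, 14.9 to 51.1), naive dKO (16.1 points, -8.16 to 37.9), the EpiLC control (23.3 points, 10 to 35.5) and EpiLC dCD (19.9 points, 7.25 to 31.9). It lay at Pdzrn3 in naive dCD (30.1 points) and at Lmod3 in EpiLC dKO (19.1 points). The lowest lay at Gm765, Rybp, Tmf1 or Gm20696, the last of which shares its start region with Eif4e3 and overlaps Foxp1. Of the bodies with at least 50 reads in both libraries, 2 of 15, 2 of 14 and 4 of 16 differed by at least 10 points between states in control, dKO and dCD, where 22.0%, 16.8% and 28.0% of all protein-coding bodies did. Between mutant and control it was 2 of 14 (dKO) and 4 of 15 (dCD) in naive cells, against 17.4% and 25.2%, and 2 of 18 for each mutant in EpiLCs, against 10.9% and 12.7%. These shares lay near or below their background. Besides Mitf the bodies were those of Arl6ip5, Gm765, Rybp, Gxylt2 and Prok2, and every such interval of Arl6ip5 included 0. Gm765, just right of Mitf, had 56.2%, 68.5% and 61.5% in the naive and 43.5%, 54.9% and 50.3% in the EpiLC libraries, the same order of states as the right flank of Mitf.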

How the data were processed

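The members and gene lists were chosen with earlier results of these data known. The authors mapped read pairs of 50 bp to mm10 (bowtie2) and counted each strand in bins of 1 kb. The submitters' processing notes also name FastQC, Trim Galore and Picard, without versions, and do not say whether duplicates were removed. The deposited values are read densities, in reads per bp, with 2 replicates summed and library sizes not equalised. Every value was a whole multiple of 0.001 (tolerance 1e-06), the worth of 1 read, so dividing by it recovered read counts. The file position was taken as the end of a bin, since 0 reads then fell in bins made of N only, against 3045 if it were the start. Bins above 10 times the median count, 83 genome-wide and 0 in the region, were dropped.

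Shares have Wilson intervals, differences Newcombe intervals, and differences of differences square-and-add intervals, all at 95%. Counts within an interval of positions used bins fully inside it. Gene models are GENCODE M21, promoters RefSeq GRCm38.p6. Genes are named by rule: Frmd4b, Mitf and Foxp1 in full, other genes of the region where the strand bias at their start was the highest or lowest of a library or their body, with at least 50 reads in both libraries, differed by at least 10 points, and for each of the 3 genes the 3 long genes outside the region nearest in root mean square difference over the 6 libraries. Reads of 1 PCR product are not independent molecules, so intervals cover counting error only, and Crick reads in neighbouring 1 kb bins varied 1.12 to 1.19 times as much as counting alone gives in the region. The functions were tested on simulated strands. The alternatives covered bin choice and position, separate bins, base composition, centring, amplitude, depth, and window, flank and start sizes. Python 3.11.15, numpy 2.4.6 and pandas 2.3.3 were used.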

Additional observations from a re-analysis of the deposited data

Results flagged for a closer look

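State differences over gene bodies that departed from the control's, with an interval of the departure that left out 0, were found in 3 cases. Over Frmd4b, EpiLC minus naive was -9.1 points from the control's in dKO and -7.1 points in dCD, and over Foxp1 it was -6.3 points in dKO. With 1 library per group the differences between genotypes were not tested, and the 3 values share the control libraries.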

How the results depend on the processing

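No paired analysis was possible because the authors summed the replicates of each condition, which also left no replicate to leave out. Over the bodies of Frmd4b, Mitf and Foxp1, 267 values under the alternatives stayed inside the interval given in the report and 3 did not. The 3 came with all libraries thinned to the smallest: EpiLC minus naive dKO over Frmd4b was 3.25 points, and EpiLC dKO minus control was -1.56 points over Frmd4b and 12.9 points over Mitf. Leaving no bin out could not change a body value, since 0 bins of the region were dropped. Centring could hardly change one, since the genome-wide Crick percentage was 49.92% to 49.99% in all libraries. Both are among the 10 alternatives and in the 267, so these counts overstate how far the values were tried. Of the flank values 171 stayed inside, 8 did not and 1 took the other sign: EpiLC minus naive dCD right of Mitf was 0.982 points with even-numbered bins only. Over the 10 alternatives the EpiLC differences of both mutants from the control over Mitf (5.95 to 12.9 points for dKO, 8.61 to 12.1 for dCD) and the control's state difference over Foxp1 (4.58 to 8.62) had intervals without 0 in all 10. The interval left out 0 in 8 for the dKO departures over Frmd4b (-14.3 to -4.17) and Foxp1 (-8.02 to -3.24), and in 6 for the dCD departure over Frmd4b (-12.3 to -2.02). With intervals widened by a factor of 1.112, the largest spread between bins of any library, an alternative chosen after seeing the data, 12 of 27 body intervals left out 0, as before.

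Counts of windows past 10 points moved more, and are given in the order EpiLC minus naive (control, dKO, dCD), naive dKO, naive dCD, EpiLC dKO and EpiLC dCD. With windows of 50 kb (91 windows) they were 23, 18, 27, 20, 24, 11 and 6, or 25.3%, 19.8%, 29.7%, 22.0%, 26.4%, 12.1% and 6.59%, against 23.5%, 19.9%, 29.5%, 23.4%, 31.9%, 7.22% and 10.3% of the genome. With 200 kb (22 windows) they were 3, 2, 4, 0, 4, 0 and 0, against 6.99%, 4.53%, 13.7%, 5.34%, 14.8%, 0.773% and 1.9%. At 5 points they were 25, 16, 27, 20, 23, 14 and 13, or 55.6%, 35.6%, 60%, 44.4%, 51.1%, 31.1% and 28.9%, against 46.6%, 42.5%, 54.9%, 43.7%, 55.7%, 23.3% and 32.4%. At 20 points they were 1, then 0 in the other 6, against at most 1.49%. With thinning, the control and dCD state counts were 16 and 8, and EpiLC dCD had 8. Odd-numbered bins gave 8 for the dKO state count and 15 for naive dCD. Even-numbered bins gave 9 for the dKO state count, 8 for naive dKO, 14 for naive dCD and 6 for EpiLC dCD. After correction for T minus A content, the control state count was 5 and that of EpiLC dCD was 0. The grid moved by 50 kb gave 7 for the dKO state count, or 15.6% against 10.95% of the genome. Division by amplitude gave 5 for the dCD state count, or 11.1% against 8.60%. The file position read as the start of the bin gave 3 for naive dKO. For thinning, odd- and even-numbered bins, T minus A content and the bin start no share over the genome is given. Those counts cannot be set against a background. Counts thus depended on window size, threshold and depth. The causes were not tested.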
